A study of Mus musculus with 6 samples.

Results

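The 41 collagen genes of the mouse gene table, of 15238 genes in all, were described in sorted intestinal fibroblasts of wild-type and eosinophil-deficient pups. Members were the genes whose symbol is Col, a type number, the letter a and a chain number, and they were grouped by collagen type. The fibrillar class (types 1, 2, 3, 5, 11, 24 and 27) had 10 genes, the basement membrane class (types 4, 15 and 18) 8, type 6 collagen 6, the fibril-associated collagens with interrupted triple helices (FACIT) 8, and the other collagens 9. A further 3 collagen genes named in the annotation, Col2a1, Col10a1 and Col19a1, had 1 to 18 estimated counts per library and were not tested. Bulk RNA was sequenced from podoplanin-positive cells of Balb/c intestine, sorted as negative for CD45, EpCAM and CD31, at postnatal day 9, with 3 wild-type libraries (replicates 1, 3 and 4) and 3 DdblGata1 libraries (replicates 4, 9 and 10). DdblGata1 mice lack a GATA-binding element in the promoter of Gata1, the transcription factor gene that the eosinophil lineage needs, and so lack eosinophils. The deletion is carried by every cell of the animal, and no treatment was given to either group. The labels name neither sex nor litter, and do not say whether a library came from 1 pup or a pool, so p-values measure only the spread between these libraries.

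Collagens are trimers of chains that wind into a triple helix through repeated Gly-X-Y triplets. Fibrillar collagens pack into the banded fibrils that bear tension, type 4 collagen forms the network of basement membranes, type 6 collagen forms beaded microfilaments around cells, and FACIT collagens sit on the surface of fibrils. Fibroblasts make most of the collagen of the intestinal wall, where the subepithelial fibroblasts also contribute to the epithelial basement membrane.

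Promoters are shown for the tandem type 6 genes Col6a4, Col6a5 and Col6a6, since the outer genes, Col6a4 and Col6a6, differed in opposite directions between the genotypes. They are also shown for Col1a2 and Col3a1, the most abundant fibrillar chains, whose ratio varied between libraries. Each is the 250 bases before the start site in RefSeq, build GRCm38.p6, read 5′ to 3′ on the gene's strand. Capitals mark matches on either strand to the motif CCAAT, read as ATTGG on the opposite strand. They also mark the motif GGGCGG, whose reverse complement is CCGCCC. The last motif marked is TATAAA, whose reverse complement is TTTATA. The windows are chr9:106096692-106096941, minus strand for Col6a4, chr9:105960644-105960893, minus strand for Col6a5 and chr9:105828086-105828335, minus strand for Col6a6. Those of the fibrillar genes are chr6:4505368-4505617, plus strand for Col1a2 and chr1:45311288-45311537, plus strand for Col3a1.
Col6a4: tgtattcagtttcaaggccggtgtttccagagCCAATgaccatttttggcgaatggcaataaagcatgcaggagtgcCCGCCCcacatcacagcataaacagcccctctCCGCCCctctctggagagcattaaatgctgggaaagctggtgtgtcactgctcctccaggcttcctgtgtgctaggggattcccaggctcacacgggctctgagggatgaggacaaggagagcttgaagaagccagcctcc
Col6a5: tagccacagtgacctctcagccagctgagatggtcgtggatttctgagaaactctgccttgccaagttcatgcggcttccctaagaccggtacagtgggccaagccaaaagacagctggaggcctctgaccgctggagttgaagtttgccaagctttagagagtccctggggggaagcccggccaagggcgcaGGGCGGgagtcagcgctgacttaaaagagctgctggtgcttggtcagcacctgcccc
Col6a6: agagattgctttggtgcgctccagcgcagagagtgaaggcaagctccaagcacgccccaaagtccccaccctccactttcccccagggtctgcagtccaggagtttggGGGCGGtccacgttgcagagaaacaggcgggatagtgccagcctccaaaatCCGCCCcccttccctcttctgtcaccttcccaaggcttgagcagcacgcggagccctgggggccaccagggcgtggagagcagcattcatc
Col1a2: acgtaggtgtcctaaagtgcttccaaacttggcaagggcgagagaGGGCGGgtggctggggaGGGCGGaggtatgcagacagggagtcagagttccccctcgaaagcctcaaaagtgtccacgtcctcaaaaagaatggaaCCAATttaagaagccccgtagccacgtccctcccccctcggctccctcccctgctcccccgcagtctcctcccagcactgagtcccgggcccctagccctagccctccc
Col3a1: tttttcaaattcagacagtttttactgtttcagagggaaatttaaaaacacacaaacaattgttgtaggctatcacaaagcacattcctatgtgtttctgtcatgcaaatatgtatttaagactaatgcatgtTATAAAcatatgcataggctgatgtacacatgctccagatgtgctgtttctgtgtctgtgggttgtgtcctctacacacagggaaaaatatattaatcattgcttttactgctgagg

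The CCAAT box is present in the Col6a4 window and not in those of Col6a5 and Col6a6, and GGGCGG occurs in all 3. The Col1a2 window holds 1 CCAAT and 2 GGGCGG matches and has 62.0% G or C. The Col3a1 window holds 1 TATAAA match, neither of the other motifs, and 35.2% G or C, the lowest share among the collagen promoters. RefSeq entries were found for 33 of the 41 genes, with 36 start sites. GGGCGG was found in 22 of these 36 windows (61.1%) and in 32.7% of 32851 windows of the same length over all genes. CCAAT was found in 13 of the 36 (36.1%, against 33.8% of all) and TATAAA in 4 (11.1%, against 12.4%).

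The gene table held 28110454 to 31210800 counts per library. The fragment length implied by effective transcript lengths was 363 or 364 bases in wild-type replicates 1 and 4 and DdblGata1 replicate 4. It was 326 to 341 bases in wild-type replicate 3 and DdblGata1 replicates 9 and 10. Differences are therefore also given within the longer and within the shorter libraries, where 1 genotype has a single library each time. Over all 6 libraries Gata1 had 1 estimated count, in wild-type replicate 1, so it does not check the labels. Of the markers, all 6 fibroblast genes were measured, all higher by value in DdblGata1 (median log2 fold change 0.27), with Pdgfra overlapping at 688 to 1080 CPM and Thy1 at 44.2, 60.7 and 57.8 CPM (wild-type) and 179, 102 and 98.99 CPM (DdblGata1). Summed endothelial markers (7 of 7) were 55.6, 80.5 and 71.3 CPM (wild-type) and 109.97, 117 and 169 CPM (DdblGata1). Most of this sum was Tek, at 28.8, 56.6 and 49.4 CPM (wild-type) and 81.6, 89.2 and 151 CPM (DdblGata1), and the other 6 genes overlapped. DESeq2 called Thy1 and Tek higher, at adjusted p of 0.0044 and 0.017, and also the mesothelial marker Wt1 (0.016), while the other 4 mesothelial genes overlapped. It also called 1 smooth muscle marker lower. Over all genes it called 1.42% in either direction. Summed markers of smooth muscle (7 of 7 measured) were 8441 to 13447 CPM in wild-type and 5849 to 9021 CPM in DdblGata1. In edgeR 4 of them were lower at an unadjusted p under 0.05, and 1 was lower without overlap. Pericyte markers (5 of 6 measured) were 1771 to 2326 CPM and 1370.3 to 1471 CPM. Of these 4 were lower at that p, and 4 were lower without overlap. Over all genes 4.23% were lower at that p and 7.34% were lower without overlap. Epithelial markers (7 of 7) summed to 579 CPM in wild-type replicate 1 and 103 to 148 CPM elsewhere, and leukocyte markers (4 of 6) to 73.2 CPM there and 12.5 to 32.2 CPM elsewhere. No measured marker was at 0 in every library. Cartilage and bone markers (3 of 7 measured) summed to 8.88 to 11.8 CPM over the 6 libraries. Enteric glia markers (6 of 6 measured) summed to 136, 349 and 310 CPM (wild-type) and 258, 159 and 178 CPM (DdblGata1), with overlap. The part that these markers play in the collagen values was not tested, and in bulk RNA fewer cells of a type and less RNA per cell cannot be told apart.

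The collagens as a family were spread in both directions between the genotypes. No collagen passed an adjusted p of 0.05 in edgeR's quasi-likelihood test, and neither did any other gene (0 of 15238, 0%; lowest Benjamini-Hochberg adjusted p 0.384), while 216 genes (1.42%) did in DESeq2 and 0 in limma-voom. By value, 20 collagens were higher and 21 lower in DdblGata1, with a median log2 fold change of -0.06, beside -0.01 over all genes. At an unadjusted p under 0.05, 5 of 41 were higher and 6 lower, against 6.03% higher and 4.23% lower over all genes. Groups of CPM (counts scaled to library size and by TMM) did not overlap for 5 higher and 5 lower, against 8.98% and 7.34% of all genes. DESeq2 called Col4a3 higher and Col6a4 and Col26a1 lower at adjusted p of 0.022, 0.01 and 0.012. Without DdblGata1 replicate 4, DESeq2 called 10 collagens, and without DdblGata1 replicate 10 it called none. Its calls over all genes also rose in the first of these runs and fell in the second. Those totals are given with the processing alternatives at the end. The remaining 29 genes had overlapping groups and a p of at least 0.05, and 26 of these lay within 0.5 log2 units of 0. By class, the median log2 fold change was -0.06 for fibrillar, 0.16 for basement membrane, -0.06 for type 6, -0.14 for FACIT and -0.15 for other collagens.

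**Figure D1:**
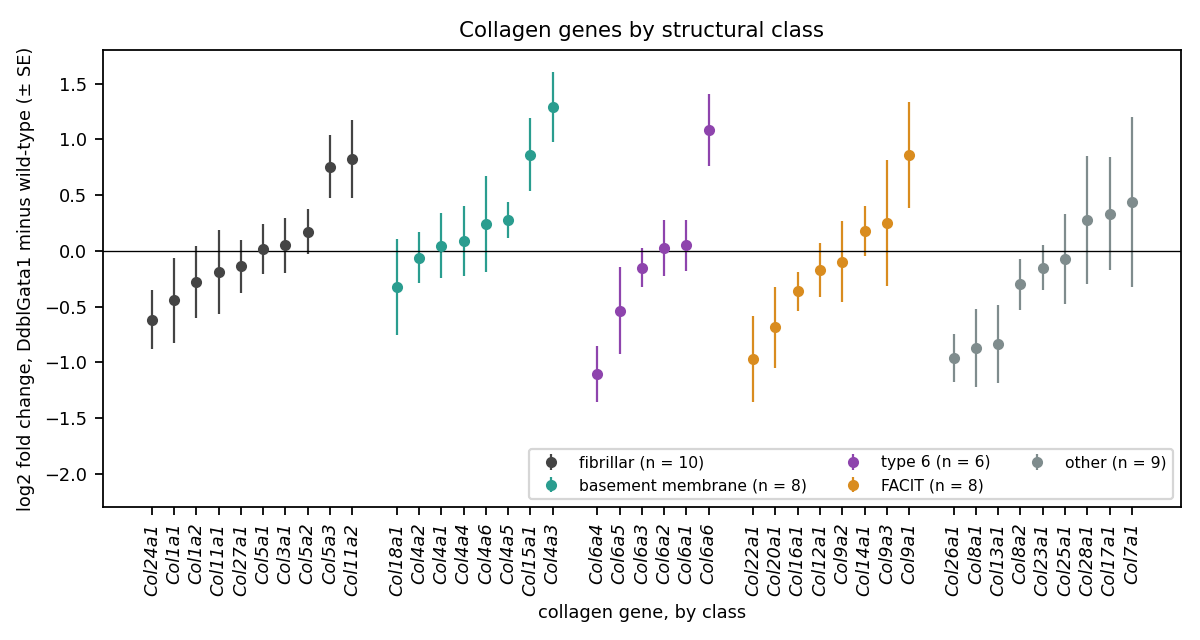
Log2 fold change (DdblGata1 minus wild-type, y axis) of the 41 collagen genes by class (x axis), with points for fitted values and bars for the standard error, from 3 libraries per genotype. Type 6 spans -1.10 (Col6a4) to 1.08 (Col6a6), while Col6a1, Col6a2 and Col6a3 lie near 0.

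Collagens held a large share of the RNA, most of it fibrillar. In TPM, which are scaled per length so that genes can be compared, collagens made up 4.73, 6.11 and 7.002% (wild-type) and 7.12, 5.46 and 5.53% (DdblGata1). The ranges overlapped, with the lowest share in wild-type replicate 1. Fibrillar genes took 4.04, 5.26 and 6.01% (wild-type) and 5.97, 4.64 and 4.75% (DdblGata1), type 6 genes 0.365, 0.440 and 0.510% (wild-type) and 0.575, 0.419 and 0.392% (DdblGata1), and basement membrane genes 0.171, 0.228 and 0.260% (wild-type) and 0.350, 0.234 and 0.203% (DdblGata1). The FACIT genes took 0.142, 0.175 and 0.210% (wild-type) and 0.214, 0.160 and 0.177% (DdblGata1). The 9 other collagens took 0.00944 to 0.0130% in wild-type and 0.00596 to 0.00921% in DdblGata1. This was the only class whose groups did not overlap, by a narrow margin. Mean TPM over the libraries was above 1000 for 9 genes, in the order Col3a1 (33081), Col1a2 (8053), Col1a1 (7901), Col6a2 (1596), Col6a1 (1518), Col4a1 (1385), Col6a3 (1141), Col14a1 (1127) and Col5a1 (1042). It was under 5 for 12 genes, the lowest being Col4a6 at 0.242.

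**Figure D2:**
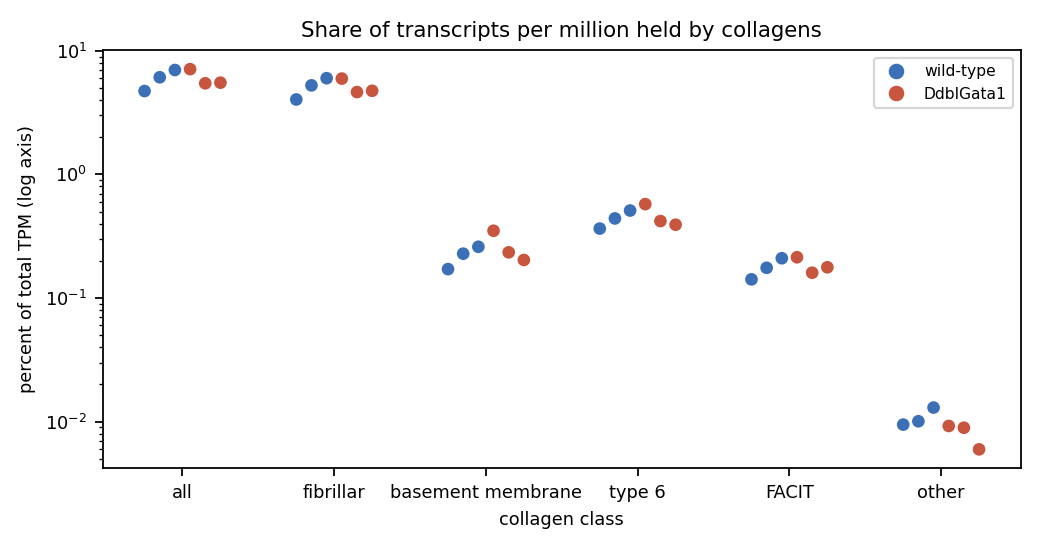
Percent of total TPM (y axis, log scale) held by all collagens and by each class (x axis), with 1 point per library, in the order of replicates 1, 3 and 4 (wild-type) and 4, 9 and 10 (DdblGata1). The genotypes overlap in every class but the 9 other collagens.

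Short annotated transcripts enter these levels. The gene table is scaled by length, so a read assigned to a short transcript weighs more than a read assigned to a long one. In 16 of the 41 genes under 75% of the TPM lay in transcripts of 2000 bases or more. Col3a1 had 51.5% of its TPM in these, since the 737-base Col3a1-205 and the 431-base Col3a1-207 held most of the rest, and Col6a3 had 49.1%. Ratios between chains are therefore given over transcripts of 2000 bases or more. Over these, mean TPM was 17039 for Col3a1, 8003 for Col1a2 and 7888 for Col1a1, the same order as before.

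Among the fibrillar collagens, the chains of types 1 and 3 that form the bulk of fibrils overlapped between the genotypes, and Col5a3 was higher in each DdblGata1 library. Col1a1, the major chain of type 1 collagen (ENSMUSG00000001506; chr11:94936224-94953042, plus strand), was at 30664, 31873 and 43732 CPM (wild-type) and 42395, 19380.3 and 16403 CPM (DdblGata1). DdblGata1 replicate 4 lay beside the highest wild-type library, whereas replicates 9 and 10 lay below all wild-type libraries. The fitted log2 fold change was -0.44 ± 0.38 (SE), with an unadjusted p of 0.279. It was 0.21 within the longer-fragment libraries and -0.84 within the shorter ones. Without DdblGata1 replicate 4 it was -0.99, and DESeq2 then gave an adjusted p of 0.000883. Without wild-type replicate 4, DdblGata1 replicate 9 or DdblGata1 replicate 10 it was -0.26, -0.28 and -0.21. Col1a2, the partner chain, followed the same order of libraries, at 25146, 26918 and 38052 CPM (wild-type) and 36007, 19709 and 18421 CPM (DdblGata1) and a log2 fold change of -0.28 ± 0.32 (SE). This was -0.66 without DdblGata1 replicate 4 and moved toward 0 without wild-type replicate 4 (-0.075), DdblGata1 replicate 9 (-0.16) or DdblGata1 replicate 10 (-0.12). Col3a1, the single chain of type 3 collagen, stood at 44728, 68484 and 62164 CPM (wild-type) and 59058, 57307 and 64893 CPM (DdblGata1). Wild-type replicate 1 was the lowest, the other 5 libraries lay between 57307 and 68484 CPM, and the fitted difference was 0.05 ± 0.25 (SE). Its ratio to Col1a1, over transcripts of 2000 bases or more, was 1.73, 1.99 and 1.84 (wild-type) and 2.06, 2.81 and 3.56 (DdblGata1), so all 3 DdblGata1 libraries lay above the wild-type ones, replicate 4 by little. Over all transcripts the groups overlapped (3.16, 4.66 and 3.08 (wild-type) and 3.02, 6.42 and 8.58 (DdblGata1)).

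Type 5 collagen nucleates fibrils within the type 1 fibril, and its Col5a3 chain is the least common of the type. Col5a3 (ENSMUSG00000004098; chr9:20770050-20815067, minus strand) stood at 364, 739.9 and 582 CPM (wild-type) and 1196, 811 and 833 CPM (DdblGata1). Each DdblGata1 library exceeded each wild-type library, with replicate 9 close to wild-type replicate 3. The log2 fold change was 0.75 ± 0.28 (SE), with an unadjusted p of 0.028 and an edgeR quasi-likelihood, Benjamini-Hochberg adjusted p of 0.461. Within the longer-fragment libraries it was 1.38, and within the shorter ones 0.15. Without wild-type replicate 1 it was 0.50. The partner chains overlapped, with Col5a1 at 3480.5, 4103 and 4484 CPM (wild-type) and 5222, 3514 and 3469.9 CPM (DdblGata1) and Col5a2 at 1955, 2332 and 2807 CPM (wild-type) and 3021, 2449.6 and 2511 CPM (DdblGata1). The ratio of Col5a3 to Col5a1 was 0.166, 0.227 and 0.166 (wild-type) and 0.281, 0.294 and 0.320 (DdblGata1), and did not overlap either over all transcripts.

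Scarcer fibrillar genes, best known from cartilage and bone, were detected at low levels. Col24a1, a fibrillar chain described in developing bone, was at 19.1, 13.6 and 14.6 CPM (wild-type) and 8.95, 13.9 and 7.91 CPM (DdblGata1). DdblGata1 replicate 9 lay between the wild-type values, so the groups overlapped, and the log2 fold change was -0.62 ± 0.26 (SE) at an unadjusted p of 0.047. By plain sums of estimated counts the groups did not overlap, with all DdblGata1 libraries the lower (log2 fold change -0.56, unadjusted p 0.011), and the same held for the full-length Col24a1-201 (-0.54, unadjusted p 0.017). Col11a2, a chain of the cartilage fibril, was at 1.77, 2.03 and 1.996 CPM (wild-type) and 2.35, 4.34 and 3.58 CPM (DdblGata1). Its groups did not overlap and the fitted difference was 0.82 ± 0.35 (SE) (unadjusted p 0.048). It did not hold when estimated counts were summed without length scaling, at 73, 64 and 90 counts (wild-type) and 56, 83 and 74 counts (DdblGata1) (log2 fold change -0.04). In DdblGata1 replicate 9, 2 counts in the 426-base Col11a2-208 made up 66.8% of the gene's TPM. Col11a1 overlapped at 9.06, 19.6 and 21.9 CPM (wild-type) and 21.01, 12.8 and 10.5 CPM (DdblGata1), as did Col27a1 at 53.4 to 93.9 CPM.

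Type 6 collagen held the widest contrast of any class. Its microfilaments are built from a chain of Col6a1, a chain of Col6a2 and a further chain, which can be Col6a3 or the related Col6a4, Col6a5 or Col6a6. The core chains overlapped between genotypes. Col6a1 was at 3179, 4408 and 4669 CPM (wild-type) and 5175, 3797 and 3700.5 CPM (DdblGata1), Col6a2 at 3339.9, 4580.02 and 4860.2 CPM (wild-type) and 5662, 3845 and 3518 CPM (DdblGata1), and Col6a3 at 3684, 3598 and 3911 CPM (wild-type) and 3731, 3124 and 3214 CPM (DdblGata1).

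Of the alternative further chains, Col6a4 was lower and Col6a6 higher in DdblGata1. The genes lie in a row on chromosome 9, all on the minus strand. Col6a4 (ENSMUSG00000032572; chr9:105989454-106096783, minus strand) was at 164, 144 and 206 CPM (wild-type) and 110.3, 68.4 and 60.3 CPM (DdblGata1). Every DdblGata1 library lay below every wild-type library, with replicate 4 the nearest. The log2 fold change was -1.10 ± 0.25 (SE), with an unadjusted p of 0.0023 and an edgeR quasi-likelihood, Benjamini-Hochberg adjusted p of 0.384. Col6a6 (ENSMUSG00000043719; chr9:105687809-105828160, minus strand) was at 209, 551 and 401 CPM (wild-type) and 757, 767 and 933 CPM (DdblGata1). The lowest DdblGata1 value exceeded the highest wild-type value, and wild-type replicate 1 was well below the others. Its log2 fold change was 1.08 ± 0.32 (SE) at an unadjusted p of 0.0097 and an edgeR quasi-likelihood, Benjamini-Hochberg adjusted p of 0.412, and DESeq2 gave an adjusted p of 0.053. With a library left out the log2 fold change ran from 0.76 (without wild-type replicate 1) to 1.42 (without wild-type replicate 3). The DESeq2 adjusted p ran from 0.0015 (without wild-type replicate 3) to 0.429 (without DdblGata1 replicate 10). Between Col6a4 and Col6a6 lies Col6a5 (ENSMUSG00000091345; chr9:105856078-105960643, minus strand), at 342, 352 and 451 CPM (wild-type) and 456, 159 and 174 CPM (DdblGata1). Here DdblGata1 replicate 4 was the highest of all 6 libraries and replicates 9 and 10 were below all wild-type libraries, the same split as for Col1a1. The fitted difference was -0.54 ± 0.39 (SE) with overlapping groups, and -1.20 without DdblGata1 replicate 4, against -0.29 without replicate 9 and -0.32 without replicate 10.

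Within the longer and the shorter libraries the differences were -0.74 and -1.16 for Col6a4 and 1.39 and 0.62 for Col6a6. Each of these splits sets 1 library of a genotype against 2 of the other, and as the groups did not overlap the signs were already fixed. Plain sums of estimated counts were 4156, 4146 and 6192 counts (wild-type) and 3407, 2120 and 2118 counts (DdblGata1) for Col6a4 (log2 fold change -0.84, unadjusted p 0.025). For Col6a6 they gave a log2 fold change of 1.07 (unadjusted p 0.011). For the full-length Col6a4-201 alone the log2 fold change was -0.76, and its groups overlapped. Over transcripts of 2000 bases or more, the ratio of Col6a6 to Col6a4 was 1.79, 3.895 and 1.96 (wild-type) and 5.76, 10.8 and 13.4 (DdblGata1). The ratio of Col6a6 to Col6a3 was 0.0839, 0.155 and 0.106 (wild-type) and 0.185, 0.277 and 0.339 (DdblGata1), and that of Col6a4 to Col6a3 was 0.0469, 0.0399 and 0.0543 (wild-type) and 0.0322, 0.0255 and 0.0253 (DdblGata1). None of these groups overlapped, but Col6a4 and Col6a6 were already apart in CPM, so the ratios are not separate support. Col6a3 thus remained the most abundant of these further chains in every library, with Col6a6 at 0.339 of it at most.

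**Figure D3:**
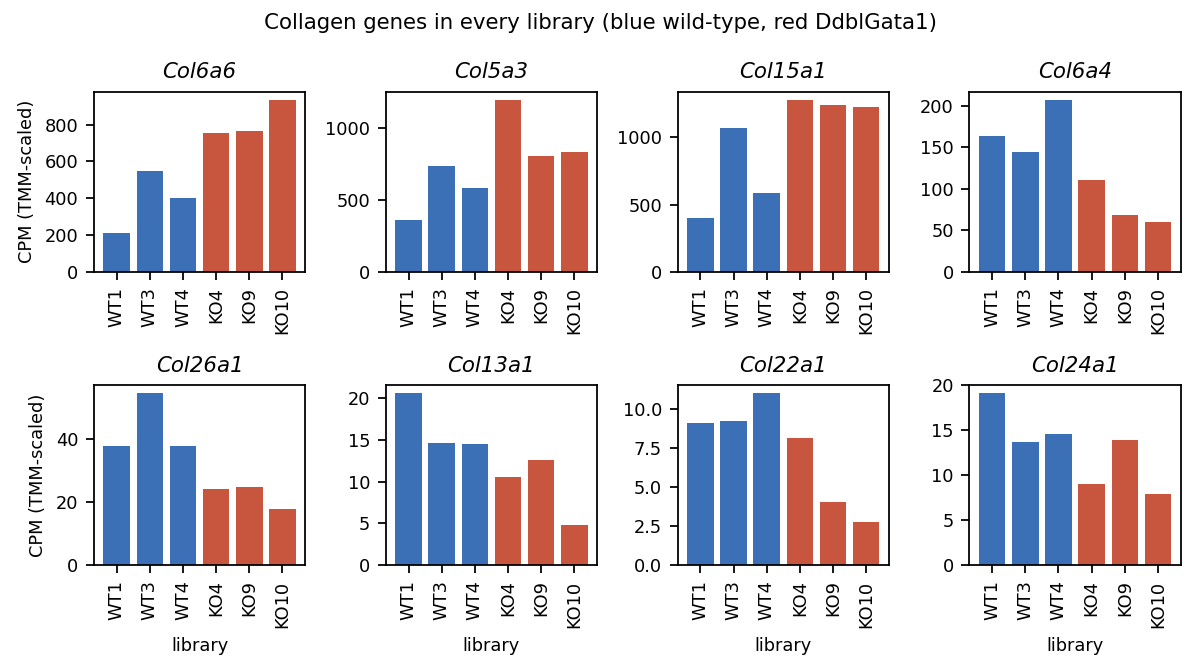
CPM (y axis, from 0) of 8 collagen genes in each library (x axis; WT is wild-type and KO is DdblGata1, followed by the replicate number), with 1 bar per library. Col6a6, Col5a3 and Col15a1 are higher in all 3 DdblGata1 libraries and Col6a4, Col26a1, Col13a1 and Col22a1 lower in all 3, whereas Col24a1 overlaps through replicate 9.

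In the basement membrane class, the main network chains did not separate the genotypes. Col4a1, at 2402, 2741 and 3346 CPM (wild-type) and 4237, 2469 and 2056 CPM (DdblGata1), and Col4a2, at 1536, 2081 and 1923 CPM (wild-type) and 2288, 1532 and 1492 CPM (DdblGata1), form the common type 4 trimer and are transcribed head to head from chromosome 8, with annotated ends that overlap by 22 bases. Their ratio, over transcripts of 2000 bases or more, hardly varied, at 1.45, 1.47 and 1.49 (wild-type) and 1.503, 1.51 and 1.51 (DdblGata1), with the DdblGata1 values slightly the higher. Over all transcripts the groups overlapped. Col15a1 and Col18a1 encode collagens that bridge the basement membrane to the matrix beneath and carry the anti-angiogenic fragments known as restin and endostatin. Col15a1 (ENSMUSG00000028339; chr4:47208161-47313167, plus strand) was at 398, 1072 and 589 CPM (wild-type) and 1277, 1245 and 1226 CPM (DdblGata1). The DdblGata1 libraries were close together above the wild-type ones, which spread more widely, for a log2 fold change of 0.86 ± 0.33 (SE) (unadjusted p 0.03, edgeR quasi-likelihood with Benjamini-Hochberg adjusted p 0.461). Within the longer libraries it was 1.40, within the shorter ones 0.20, and by plain sums 0.71 with an unadjusted p of 0.075 and overlapping groups. Without wild-type replicate 1 the fitted value was 0.56. Without wild-type replicate 3 it was 1.34, where DESeq2 gave an adjusted p of 1.81e-05, against 0.438 without wild-type replicate 1. The fibroblast marker Thy1 and 1 of the 7 endothelial markers, Tek, were likewise higher in each DdblGata1 library. The endothelial markers did not move together, since 4 were higher and 3 lower by value (median 0.05 in log2 units) and only Tek was without overlap. The part of Thy1 and Tek in the higher values of Col15a1, Col5a3 and Col6a6 was not tested. Col18a1, at 223, 460.4 and 748 CPM (wild-type) and 553, 285 and 302 CPM (DdblGata1), overlapped. Over transcripts of 2000 bases or more, the ratio of Col15a1 to Col18a1 was 1.52, 1.87 and 1.08 (wild-type) and 3.09, 3.504 and 3.32 (DdblGata1), without overlap, whereas over all transcripts the groups overlapped.

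Of the rarer type 4 chains, Col4a3, Col4a4 and Col4a6 were near the bottom of the range of levels and Col4a5 in the middle. Col4a3, a chain of the network known from kidney and lung (ENSMUSG00000079465; chr1:82586921-82722059, plus strand), had the largest fitted difference of the 41 genes. In the gene table it held 150, 312 and 235 counts (wild-type) and 535, 648 and 471 counts (DdblGata1), without overlap, and the log2 fold change was 1.29 ± 0.32 (SE) (unadjusted p 0.0034, edgeR quasi-likelihood with Benjamini-Hochberg adjusted p 0.384). That separation rested on few reads. The 524-base Col4a3-202 had 8.24, 8.31 and 1.22 estimated counts in the DdblGata1 libraries and 0 in wild-type, and these made up 63.4%, 46.2% and 8.71% of the gene's TPM there. The full-length Col4a3-201 had 182, 331 and 307 estimated counts (wild-type) and 254, 464 and 574 estimated counts (DdblGata1), and the groups overlapped. Plain sums over the gene gave a log2 fold change of 0.69 with an unadjusted p of 0.068. Its neighbour and partner Col4a4, 71 bases away on the opposite strand, was at 9.03, 21.6 and 20.8 CPM (wild-type) and 18.5, 16.9 and 19.3 CPM (DdblGata1) and overlapped. Col4a5 stood at 105 to 158 CPM and Col4a6 at 0.640 to 1.23 CPM, both with overlapping groups.

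**Figure D4:**
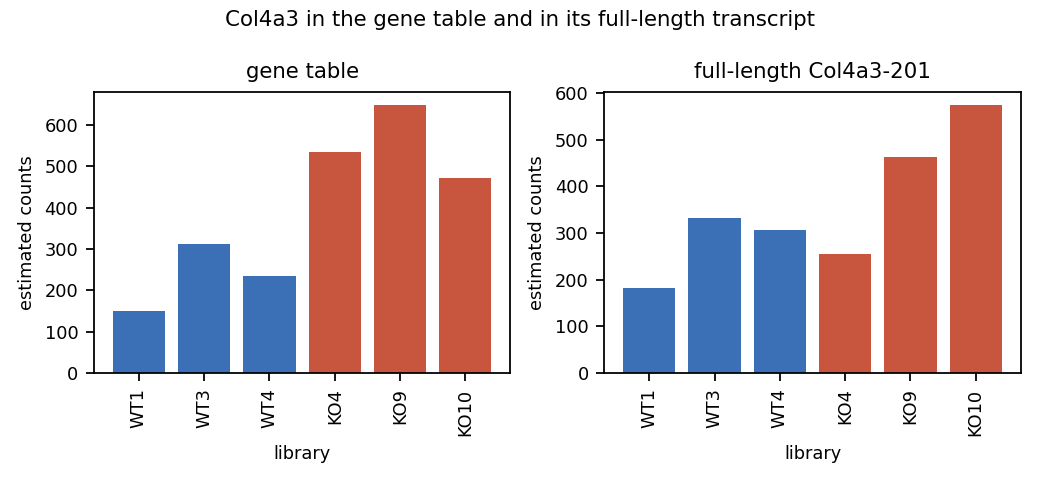
Estimated counts of Col4a3 (y axis, from 0) in each library (x axis; WT is wild-type and KO is DdblGata1) in the length-scaled gene table and in the full-length transcript Col4a3-201, with 1 bar per library. The groups are apart in the gene table and overlap in the full-length transcript, where DdblGata1 replicate 4 (254 counts) lies below wild-type replicates 3 and 4.

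Among the FACIT collagens the most abundant member overlapped between genotypes and a scarce one was lower in DdblGata1. Col14a1, which binds the surface of fibrils and limits their fusion, was the most abundant at 2564, 3689.7 and 4080.03 CPM (wild-type) and 4254, 3323 and 4109.5 CPM (DdblGata1), with overlap. Col16a1, a FACIT found near basement membranes and in smooth muscle, was at 810.4, 806 and 865 CPM (wild-type) and 780.5, 564 and 584 CPM (DdblGata1). All DdblGata1 libraries lay below the wild-type ones, replicate 4 narrowly, and the log2 fold change of -0.36 ± 0.18 (SE) had an unadjusted p of 0.074. Only 38.7% of its TPM lay in transcripts of 2000 bases or more, and plain sums overlapped. Col22a1, a collagen of tissue junctions such as that of muscle and tendon, had 9.09, 9.17 and 10.96 CPM (wild-type) and 8.104, 4.04 and 2.78 CPM (DdblGata1). Its groups did not overlap, with replicate 4 close to wild-type, for a log2 fold change of -0.97 ± 0.39 (SE) (unadjusted p 0.037), and plain sums gave -1.03 (unadjusted p 0.012). Without DdblGata1 replicate 4 it was -1.51. The remaining FACIT genes, Col9a1, Col9a2, Col9a3, Col12a1 and Col20a1, overlapped, with fitted log2 fold changes from -0.69 (Col20a1) to 0.86 (Col9a1). Leaving out each library in turn spread these from -1.06 to -0.47 for Col20a1, lowest without DdblGata1 replicate 4, and from 0.37 (without DdblGata1 replicate 9) to 1.32 (without wild-type replicate 3) for Col9a1. DESeq2 with the deposited surrogate variables called Col20a1 lower, at an adjusted p of 0.000436.

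Of the 9 other collagens 6 were lower by value, and the 3 at an unadjusted p under 0.05 were all lower, beside 4.23% lower and 6.03% higher over all genes. Col26a1, a short collagen also known as Emid2 (ENSMUSG00000004415; chr5:136741759-136883209, minus strand), had the smallest p of the 41 genes. It stood at 37.7, 54.3 and 37.8 CPM (wild-type) and 23.98, 24.8 and 17.9 CPM (DdblGata1). The highest DdblGata1 value was well below the lowest wild-type value. The log2 fold change was -0.96 ± 0.21 (SE), with an unadjusted p of 0.0019 and an edgeR quasi-likelihood, Benjamini-Hochberg adjusted p of 0.384. It was -0.65 and -1.37 within the longer and shorter libraries, -0.80 by plain sums (unadjusted p 0.0022), and -0.56 for its longest coding transcript, Col26a1-202, with overlap.

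Col13a1, a membrane-spanning collagen known from the neuromuscular junction, was at 20.6, 14.7 and 14.6 CPM (wild-type) and 10.5, 12.5 and 4.84 CPM (DdblGata1), with DdblGata1 replicate 10 far the lowest. The groups did not overlap, and the log2 fold change was -0.84 ± 0.35 (SE) (unadjusted p 0.042). Without DdblGata1 replicate 10 it was -0.54. Col8a1, a short-chain network collagen of vessel walls, was at 79.2, 74.4 and 156 CPM (wild-type) and 79.6, 50.5 and 39.1 CPM (DdblGata1). Wild-type replicate 4 was the highest, DdblGata1 replicate 4 matched the other wild-type libraries, and the log2 fold change of -0.87 ± 0.35 (SE) (unadjusted p 0.037) moved to -0.45 without wild-type replicate 4. Its partner Col8a2 overlapped at 46.8, 59.7 and 62.6 CPM (wild-type) and 60.3, 42.3 and 34.5 CPM (DdblGata1). The other 5 genes, Col7a1 of anchoring fibrils, the membrane-spanning Col17a1, Col23a1 and Col25a1, and Col28a1, overlapped between the genotypes. Col7a1 ranged from 5.17 to 54.4 CPM, both extremes being DdblGata1 libraries. Markers of smooth muscle and pericytes were lower in DdblGata1 too, by a median log2 fold change of -0.73 and -0.58, and their part in the lower values of Col26a1, Col13a1, Col22a1, Col16a1 and Col6a4 was not tested.

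**Figure D5:**
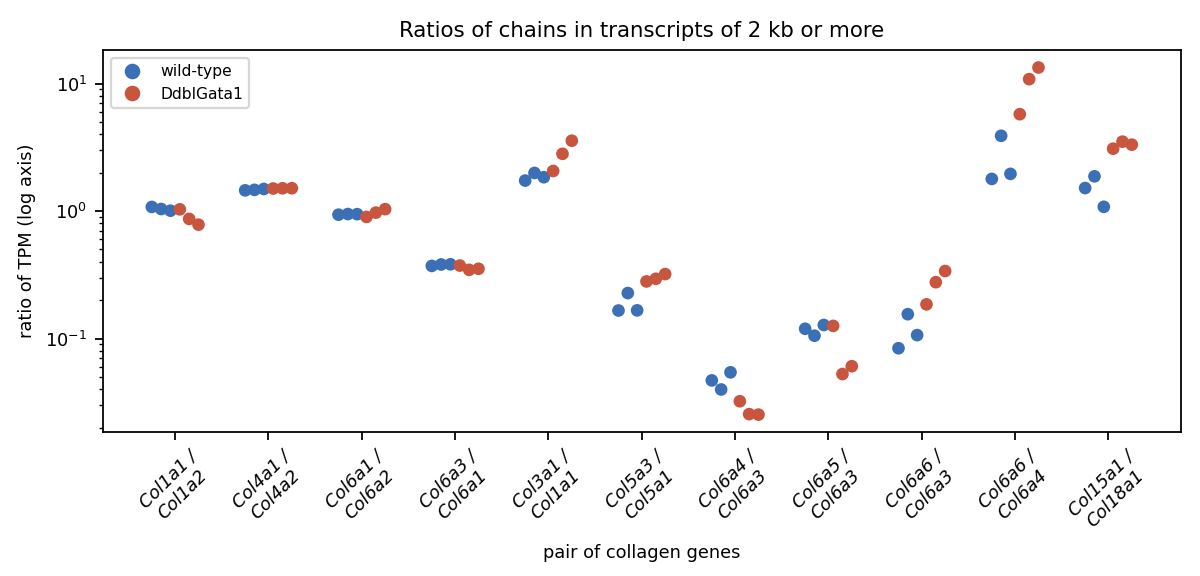
Ratio of TPM (y axis, log scale) between pairs of collagen genes (x axis) over transcripts of 2000 bases or more, with 1 point per library in the order of replicates 1, 3 and 4 (wild-type) and 4, 9 and 10 (DdblGata1). The ratios of Col4a1 to Col4a2, of Col6a1 to Col6a2 and of Col6a3 to Col6a1 vary little, while that of Col6a6 to Col6a4 runs from 1.79 to 3.895 in wild-type and from 5.76 to 13.4 in DdblGata1.

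Ratios between partner chains varied little in several pairs. Col1a1 to Col1a2 was 1.08, 1.04 and 1.01 (wild-type) and 1.03, 0.868 and 0.783 (DdblGata1), so that DdblGata1 replicates 9 and 10 lay below the other 4 libraries. Col6a1 to Col6a2 was 0.937, 0.948 and 0.946 (wild-type) and 0.8999, 0.972 and 1.04 (DdblGata1), and Col6a3 to Col6a1 was 0.371, 0.381 and 0.382 (wild-type) and 0.374, 0.346 and 0.353 (DdblGata1). Col5a1 to Col5a2 ranged from 0.876 to 1.19. The pairs in which the genotypes did not overlap over both sets of transcripts were Col5a3 to Col5a1 and the ratios of Col6a6 or Col6a4 to their relatives, all involving the chains named above. Col5a3, Col6a4 and Col6a6 were named because their own groups were apart in CPM, so the ratios are not separate support. For Col6a6 to Col6a5 the groups were barely apart, at 0.703, 1.47 and 0.833 (wild-type) and 1.48, 5.25 and 5.58 (DdblGata1).

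The classes, assigned by type number, were set beside the Gly-X-Y repeats of the longest complete coding sequence of each gene. A run was counted from 5 triplets in a row. Fibrillar chains had a longest run of 216 to 344 triplets (median 338) in 2 or 3 runs, where Col24a1 (216) and Col27a1 (217) were the short ones. Basement membrane chains had 11 to 27 runs with a longest run of 30 to 66. Type 6 chains had a longest run of 37 to 87, and the runs covered 10.1% (Col6a3) to 31.9% (Col6a2) of the protein. FACIT chains had a longest run of 32 to 113, and the other collagens 23 (Col26a1) to 75 (Col7a1). By longest run only the fibrillar class stood apart, since the ranges of the remaining classes overlapped. The repeats therefore do not check the assignment of those classes. Col6a4, Col6a5 and Col6a6, which differed in direction, had similar helices, with longest runs of 45, 37 and 42 triplets.

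Genes that process collagen were spread in both directions. Of 40 measured, 15 were higher and 25 lower by value, and at an unadjusted p under 0.05 2 were higher and 1 lower. These shares, 5% and 2.5%, were no higher than the 6.03% and 4.23% over all genes. Tgm2, a transglutaminase that crosslinks matrix proteins, was at 361, 371 and 404 CPM (wild-type) and 318, 176 and 198 CPM (DdblGata1) (log2 fold change -0.71 ± 0.23 (SE), unadjusted p 0.014). Mia3, also called TANGO1, which loads procollagen into transport carriers, was at 77.2, 84.8 and 92.7 CPM (wild-type) and 95.7, 119 and 149 CPM (DdblGata1) (0.51 ± 0.18 (SE), unadjusted p 0.023). Pcolce2, an enhancer of procollagen C-proteinase, was at 23.7, 36.8 and 32.9 CPM (wild-type) and 39.7, 41.3 and 64.1 CPM (DdblGata1) (0.64 ± 0.24 (SE), unadjusted p 0.031). Groups did not overlap for these 3 genes. In the whole list 3 genes were higher and 2 lower without overlap, which is 12.5% of the 40, against 16.3% of all genes. Without DdblGata1 replicate 10 the log2 fold change was 0.32 for Mia3 and 0.36 for Pcolce2. Tll2, a C-proteinase of the Bmp1 family, overlapped at 1.905 to 6.17 CPM. Among collagen receptors and uptake genes, 11 of 12 were measured, 5 higher and 6 lower by value. Ddr2, the receptor tyrosine kinase for fibrillar collagen, was at 332, 526 and 492 CPM (wild-type) and 635, 623 and 876 CPM (DdblGata1), without overlap (0.66 ± 0.23 (SE), unadjusted p 0.02, edgeR quasi-likelihood with Benjamini-Hochberg adjusted p 0.444). It was the 1 receptor at an unadjusted p under 0.05 and none was lower at that p, beside 6.03% higher and 4.23% lower over all genes, and so few genes cannot be set apart from that background. The next by p, Itga11 (integrin α11, a type 1 collagen receptor), Ddr1 and Lair1, overlapped.

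Transcript usage within collagen genes did not differ detectably. Of 31 collagens with at least 2 transcripts to test, none passed an adjusted p of 0.05 in edgeR's diffSpliceDGE with the Simes method, against 24 of 9448 genes (0.254%), and 1, Col16a1, had an unadjusted p under 0.05, against 183 of the 9448 (1.94%).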

How the data were processed

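Per the submitters' processing notes, bcl2fastq 2.2, kallisto, R 4.2.2 and DESeq2 were used, with builds mm10 and GRCm38.p6. The authors' deposited gene table holds rounded estimated counts (expected counts). 99.7% of its values equal TPM summed per gene, times mean gene length, scaled to the library total (tolerance 1% plus 1 count), and 26.2% equal plain sums. The authors deposited kallisto's estimated counts, TPM and other values (effective lengths) per transcript, a size factor per library (ratio) and, as a score, 2 surrogate variables of unstated method. GENCODE M21 assigned 113580 of 115270 transcripts. The table held 99.6% of the counts of each library.

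Genotypes were compared over all genes with edgeR 4.0.16 in R 4.3.3 (TMM, filterByExpr, which removed 0 genes, robust quasi-likelihood fits, Benjamini-Hochberg adjustment). No covariate was used. DESeq2 1.42.0, limma 3.58.1, other filters and scalings, plain transcript sums, the longest coding transcript, surrogate variables, fragment length and leaving out each library were alternatives, and the script was tested on simulated data. Usage of transcripts was compared by diffSpliceDGE on rounded counts. Members and lists were chosen with earlier results of these data known. Values are given for the 2 most abundant genes of each class, each member with an unadjusted p under 0.05 or non-overlapping groups, and their partner chains; of other lists, up to 4 by smallest p. Partners near 0 are given without fold change.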

Additional observations from a re-analysis of the deposited data

How the results depend on the processing

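With 3 libraries per genotype, standard errors of the collagen log2 fold changes were 0.16 to 0.76, so small differences were not detectable. No paired analysis was possible because the genotypes share only replicate number 4. Of 18 collagens with a printed fold change, 16 kept their direction under each alternative run. Where groups did not overlap, leaving out a library could hardly change the sign. For such genes those runs are no test of direction. Col11a2 turned to -0.038 with plain transcript sums and -0.084 with the longest coding transcript only. Col3a1, near 0, turned to -0.085 with the deposited surrogate variables, -0.095 with these in DESeq2 and -0.0060 with fragment length as covariate, and ranged from -0.14 to 0.18 when each library was left out. Settings with DESeq2 and surrogate variables, fragment length, the longest coding transcript and transcripts of 2000 bases or more were chosen after seeing the data.

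At an adjusted p of 0.05 the 0 genes of the edgeR test became 216 in DESeq2 and 448 in DESeq2 with surrogate variables, and 0 to 1023 when each library was left out in either tool (in edgeR 1 without DdblGata1 replicate 4; in DESeq2 107, 242 and 140 without wild-type replicates 1, 3 and 4 and 1023, 81 and 43 without DdblGata1 replicates 4, 9 and 10). For collagens these were 3, 7 and 0 to 10, the 7 being Col4a3, Col5a3, Col6a4, Col6a6, Col15a1, Col20a1 and Col26a1. The 5 collagens higher at an unadjusted p under 0.05 became 2 with plain sums and 2 with the longest coding transcript. They became 4 with surrogate variables in edgeR, and 2 to 5 with a library left out (2 without wild-type replicate 1 or 4). The 6 lower became 3 with limma on log2(TPM + 1) and 2 with the longest coding transcript, and 2 to 10 with a library left out (10 without DdblGata1 replicate 4). With surrogate variables in edgeR they became 8. In that run Col1a1 was at a log2 fold change of -0.27 (unadjusted p 0.027) and Col6a5 at -0.40 (unadjusted p 0.038). By plain sums 7 of the 11 kept that p. The shares of all genes at an unadjusted p under 0.05 in each of these runs are not given here. These counts, and those of the next paragraph, therefore cannot be set against that background.

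For the processing list, the 2 higher became 1 with plain sums, the longest coding transcript or fragment length, and 0 to 4 with a library left out. The 1 lower became 2 in DESeq2, in limma-voom and with at least 100 counts in 3 libraries, 3 with plain sums or surrogate variables, 4 with these in DESeq2, and 0 to 7 with a library left out. For receptors, the 1 higher became 0 with the longest coding transcript, 3 with surrogate variables in either tool, and 0 to 1 with a library left out, and the 0 lower became 2 with plain sums. The median log2 fold change of the other collagens ranged from -0.64 to -0.018 with a library left out.

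The difference in share (DdblGata1 minus wild-type) of all collagens was 0.09 percentage points of TPM, -1.06 of gene table counts and -1.36 of TPM in transcripts of 2000 bases or more. For fibrillar collagens it was 0.02, -1.13 and -1.39, and for the other collagens -0.0028, -0.0080 and -0.011. Genes called for transcript usage numbered 47 with the F test, 8 with a 10% share filter and 2 to 70 with a library left out. The cause of these changes was not tested.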
